A study of Mus musculus with 24 samples.

Results

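Muscle stem cells sorted from injured mouse muscle were compared with the other cell populations sorted from injured muscle on the same day. The 3 libraries of injured muscle stem cells (MuSC) were set against 9 libraries of 3 other populations, and all 12 belong to a series of 24 libraries that also holds the same populations from uninjured muscle. All genes of the count table were considered, 52997 gene symbols in all, of which 14544 had enough counts in the 12 libraries to be tested. The mice were C57BL/6, 8 weeks old, and all 12 libraries came from hindlimb muscle taken 1 day after cardiotoxin, which comes from cobra venom and kills the fibers while much of the stem cell pool survives. Each population had 3 biological replicates. The hematopoietic group was gated as CD45+ and the endothelial group as CD31+. The mesenchymal stromal group (MSC) lacked CD45 and CD31 and carried Sca1 and PDGFRa. The MuSC gate lacked CD45, CD31 and Sca1 and carried Vcam1. About 1000 cells per library were sorted and sorted again, so each library is an average over a pool, and more cells expressing a gene cannot be told apart from more RNA per cell.

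Satellite cells are the stem cells of skeletal muscle and lie between the fiber and its basement membrane. The transcription factor Pax7 marks them, and most are quiescent in resting muscle. After injury they leave quiescence, enlarge, switch on the myogenic factor Myod1, enter the cell cycle and later either fuse into new fibers, a step that Myog accompanies, or return to quiescence. They do so among leukocytes, endothelial cells and stromal cells that respond to the same injury. The comparison asks how their transcripts differ from those of cells that met the same injury.

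Both marker genes were found where the label places them. Pax7 (chromosome 4, 139737062 to 139833528, minus strand, GRCm38) had 201, 225 and 252 CPM (counts-per-million, scaled for library size) in the 3 injured MuSC libraries, and 0.153, 0.193 and 2.05 in CD31+ cells. It had no count in the CD45+ or MSC libraries. Myod1 (chromosome 7, 46376474 to 46379099, plus strand) had 2220, 2330 and 2169 CPM in MuSC. A single Myod1 read was counted over the 9 other libraries, in CD31+ library 2. The sort genes followed the gates, which chose the cells and so are no finding. Vcam1 was highest in MuSC, at 444, 408 and 359.8 CPM against 130.5, 79.6 and 97 in MSC. Pecam1, which encodes CD31, had 4 counts over the 3 MuSC libraries, and Ptprc, which encodes CD45, had 5. Ly6a, which encodes Sca1, had 2.23, 12.8 and 6.6 CPM in MuSC, and Pdgfra had 0.297, 48.7 and 25.4, so the markers of the stromal gate were low and uneven among the 3 MuSC libraries.

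The 12 libraries held between 4684092 and 7259626 counts each. A gene with no count in a library may have been present at up to 0.388 to 0.756 CPM, the level that 3 counts would give, and this limit covers counting error only. Across genes, the log2 CPM of the MuSC libraries correlated at 0.978 to 0.981 with each other. The same correlation, a description over genes that share libraries, was 0.840 to 0.881 with MSC, 0.703 to 0.717 with CD31+ cells and 0.545 to 0.581 with CD45+ cells. MSC were therefore the population nearest to MuSC, and most of the results below turn on the difference between these groups.

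The comparison was made in a pair of ways. Against the mean of the 3 other populations, which averages their log levels, 4432 genes were higher in MuSC (30.5% of those tested) and 3941 were lower (27.1%), at a Benjamini-Hochberg adjusted p under 0.05 in edgeR's quasi-likelihood test. The median log2 difference over all genes tested was near 0, at −0.0046. That average is pulled far down by any population in which a gene is near 0: 524 of the genes higher than the mean were lower than at least 1 single population, and Pdgfra itself lay 1.14 ± 1.01 (log2 ± standard error, adjusted p = 0.378) from the mean while −4.79 ± 1.02 from MSC (adjusted p = 0.00622). The stricter count used from here on asks for a difference in the same direction from each of the 3 populations. By that rule 1199 genes were highest in injured MuSC (8.24% of those tested) and 1101 were lowest (7.57%). The population with the next level was MSC for 786 of the 1199, CD31+ cells for 318 and CD45+ cells for 95. All 3 MuSC libraries lay above all 9 others for 2175 genes (15%) and below all 9 for 1074 (7.38%). Of the 1199 and 1101, 499 and 515 differed more than 2-fold from each population.

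The largest differences were carried by regulators and surface proteins of the myogenic lineage. Among genes highest in MuSC, with at least 20 CPM there and no overlap between groups, the 12 farthest from the mean of the other populations were Myod1, Chrna1, Myog, Cdh15, Pax7, Myf5, C1qtnf3, Fgfr4, Chodl, Nctc1, Popdc3 and Rapsn. Myod1 gave 46262 counts over the MuSC libraries against 1 over CD31+ cells, a ratio of 40300 scaled for depth, with a counting interval of 7230 to 1590000. Pax7 was 254-fold above CD31+ cells (7.99 ± 0.50 on the log2 scale, adjusted p = 5.31e-06). Myf5, the other early myogenic determination factor, had 138, 182 and 298 CPM in MuSC and 3 counts over CD31+ cells, a ratio of 1270 with a counting interval of 434 to 6150. Absence of overlap between groups was a condition for naming the 12 genes and so is no finding.

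Several of these genes belong to the junction with the motor nerve. Chrna1 (chromosome 2, 73563215 to 73580338, minus strand) encodes the alpha subunit of the muscle acetylcholine receptor. It had 668, 506 and 601 CPM in MuSC and 1.53, 0.165 and 1.79 in MSC, the nearest population, a 471-fold difference (8.88 ± 0.35, adjusted p = 2.55e-08). Rapsn, which clusters that receptor, had 225, 197 and 254 CPM in MuSC and 7 counts over CD45+ cells. Myog (chromosome 1, 134289989 to 134292548, plus strand), the factor of myoblast differentiation, had 128, 67.6 and 77.4 CPM in MuSC and no count in any of the 9 other libraries, which makes it at least 547-fold higher than CD31+ cells at the floor of 3 counts over that group.

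The remaining genes of the 12 encode adhesion and signalling proteins or have a less defined role. Cdh15 (chromosome 8, 122847966 to 122867397, plus strand) encodes M-cadherin, which holds satellite cells to the fiber, and had 681, 711 and 813 CPM in MuSC, 1030-fold above CD31+ cells. Fgfr4, a fibroblast growth factor receptor of myogenic cells, had 290.1, 327 and 256 CPM and lay 535-fold above CD31+ cells. Chodl, a transmembrane lectin, had 686, 853 and 846 CPM and lay 496-fold above CD31+ cells. C1qtnf3, a secreted C1q-related protein, had 309, 180.2 and 359 CPM and lay 379-fold above MSC. Popdc3, a membrane protein of striated muscle, had 94.1, 84.6 and 94.6 CPM and lay 356-fold above CD31+ cells. In each of these the MuSC libraries agreed within a factor of 2. The noncoding transcript Nctc1 had 35.8, 51.9 and 60.2 CPM in MuSC and 2 counts over CD31+ cells, a ratio of 448 with a counting interval of 124 to 3710.

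**Figure D1:**
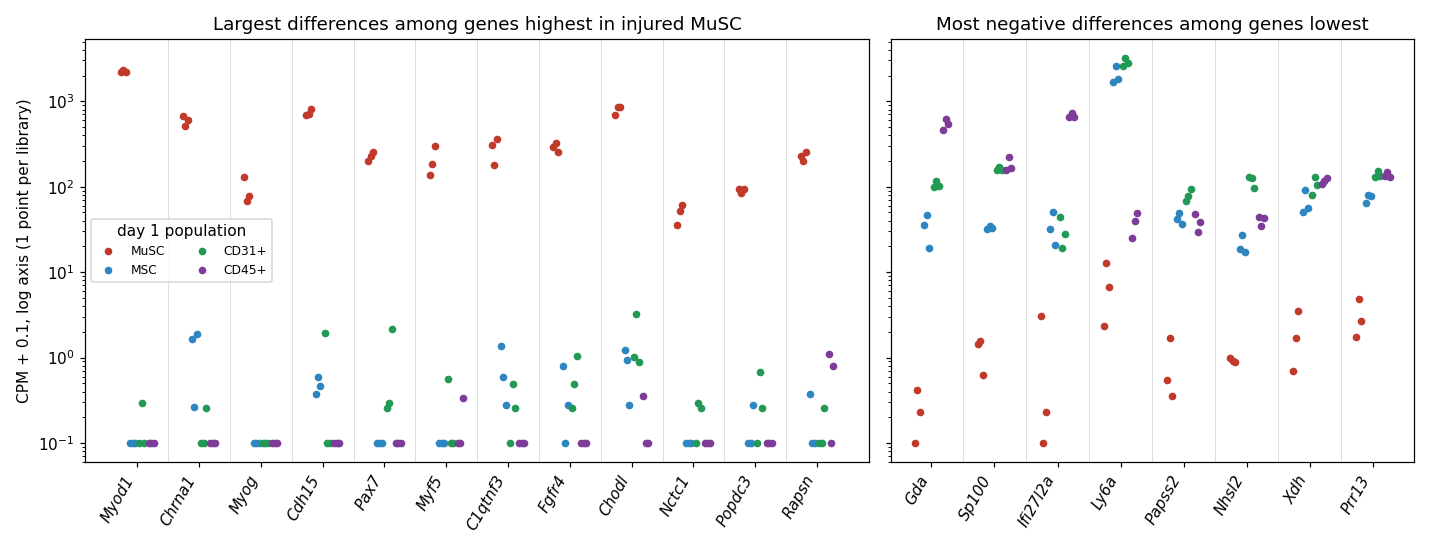
CPM + 0.1 on a log axis, with 1 point per library of injured MuSC, MSC, CD31+ and CD45+ cells; points at the bottom line of the left panel are libraries with no count. On the left, the 12 genes named by the largest differences lie between 35.8 and 2330 CPM in MuSC and near 0 elsewhere, and on the right the 8 genes with the most negative differences lie at or under 12.8 CPM in MuSC.

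The satellite cell identity list had 22 genes, all tested. All 22 were higher in MuSC than the mean of the others, and 21 were highest in MuSC by the rule of each population, with a median log2 difference of 7.92 against −0.0046 over all genes. With genes at 0 in a group set at the floor the median was 7.53. The same 21 were highest in uninjured MuSC. Ncam1, an adhesion molecule of myogenic cells, had 542, 517 and 532 CPM in MuSC against 13.8, 5.29 and 12 in MSC (5.59 ± 0.25, adjusted p = 3.68e-09). The exception was Cxcr4, a chemokine receptor, with 9.2, 8.97 and 11.8 CPM in MuSC and 21.9, 19.6 and 18.9 in CD45+ cells, which were higher by the test (−1.19 ± 0.45, adjusted p = 0.0312). Summed over the list, the CPM were 10100 to 11300 in injured and 12300 to 14200 in uninjured MuSC.

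Genes of commitment and fusion were split. Of 26 symbols listed, 19 were tested, 11 were highest in MuSC and 2 were lowest. The 11 were Musk, Rapsn, Chrna1, Chrnb1, Chrnd, Chrng, Dok7, Cdon, Myog, Mymk and Tnnt2, which include the receptor subunits and the Musk and Dok7 pair that organises the nerve junction, and Mymk, a membrane protein needed for fusion. Musk had 294, 334 and 324 CPM in MuSC against 34.7, 39.5 and 40.7 in MSC (2.97 ± 0.15, adjusted p = 2.34e-09). The 2 lowest were Jam2, an adhesion molecule, and Mef2c, a muscle transcription factor that is also made by endothelial and blood cells. Mef2c had 0.89, 0.961 and 0.906 CPM in MuSC, 9.63, 10.8 and 8.43 in MSC and 134, 127 and 111 in CD31+ cells, with no overlap (−3.43 ± 0.32 from MSC, adjusted p = 1.01e-06). Members such as Myh3 and Mymx, the embryonic myosin and the second fusion protein, did not pass the filter on low counts.

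Transcripts of the mature muscle fiber were higher in MuSC than in the other populations. Of 20 listed genes 15 were tested, and 12 were highest in MuSC, against 4 in uninjured muscle by the same rule. Actn3, a fast-fiber actin crosslinker, had 63.1, 53.8 and 76.6 CPM in MuSC and 0.558, 1.49 and 0.538 in MSC, and the groups did not overlap. The list summed to 372 to 495 CPM in injured MuSC, 72.7 to 130 in CD31+ cells, 43.9 to 71.3 in CD45+ cells and 22.3 to 34.6 in MSC. In uninjured MuSC the sum was 896 to 982.

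Contact and receptor genes separated MuSC from the other populations in both directions. Of 23 genes tested of 24 listed for the dystrophin complex and the integrins, 6 were highest and 5 lowest. The 6 were Dag1, Sgca, Dmd, Dtna, Dtnb and Itga7, that is 5 parts of the complex that ties the muscle membrane to laminin and the alpha subunit of the muscle laminin receptor. Dag1, which encodes dystroglycan, had 896, 735 and 893 CPM in MuSC and 80.4, 98.4 and 97.9 in MSC (3.11 ± 0.15, adjusted p = 2.02e-09). Itga7 had 433, 352 and 367 CPM in MuSC and 4.6, 14.1 and 8.51 in CD31+ cells (5.37 ± 0.30, adjusted p = 1.23e-08). The 5 lowest were the integrin subunits Itgb5, Itga1, Itgb3, Itga5 and Itga9. Itgb5 had 5.19, 5.93 and 6.47 CPM in MuSC against 18.1, 14.5 and 18.3 in CD31+ cells (−1.59 ± 0.18, adjusted p = 2.38e-06), so MuSC lay below every other library.

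Laminins and other basement membrane genes were not highest in MuSC. Of 21 tested of 25 listed, 0 were highest and 0 lowest by edgeR's test against each population, and the counts were also 0 at an unadjusted p under 0.05 and with DESeq2 and limma voom. Against the mean, 7 were higher and 8 lower, and 14 were lower than in MSC. Lama2, the laminin chain of the muscle basement membrane, had 77.8, 102 and 111 CPM in MuSC and 81.2, 111 and 90.8 in MSC, and the groups overlapped (−0.03 ± 0.20, adjusted p = 0.934). Lama5 was higher in MuSC (39.8, 40.8 and 52 CPM) than in MSC (0.837, 0.496 and 0.718) and lower than in CD31+ cells (321, 347 and 306).

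In the Notch pathway, through which neighbouring cells hold satellite cells in quiescence, 24 of 26 listed genes were tested, 5 were highest and 1 was lowest. The 5 were the receptor Notch3, the target Heyl, the regulator Dtx4, the ligand-like Dlk1 and the repressor Hes6. Heyl had 257, 277 and 337 CPM in MuSC against 9.82, 11.4 and 13.7 in CD31+ cells (4.57 ± 0.25, adjusted p = 1.52e-09). Notch3 had 167, 138 and 149 against 25.6, 28.2 and 29.9 (2.37 ± 0.20, adjusted p = 1.08e-07). Notch4, the endothelial receptor, was the lowest member, at 2.37, 1.12 and 0.906 CPM in MuSC and 266, 318 and 279 in CD31+ cells. The MuSC and other libraries did not overlap for these 3 genes. The list as a whole was not raised, with a median log2 difference of −0.221 from the mean. It summed to 1270 to 1320 CPM in injured MuSC, 2100 to 2390 in CD31+ cells, 859 to 967 in CD45+ cells and 474 to 480 in MSC. In uninjured MuSC the sum was 3080 to 3470.

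Few members of the growth factor pathways met the rule of each population, and the shares of the FGF, HGF, Wnt and BMP and TGF-beta lists lay near the 8.24% over all genes. In the fibroblast growth factor pathway the receptor Fgfr4 and the inhibitor Spry1 were highest, 2 of 19 tested of 22 listed, and Fgfr1 stood at 196, 221 and 237 CPM in MuSC and 174, 195 and 177 in MSC (0.18 ± 0.22, adjusted p = 0.565). Met, the receptor of the hepatocyte growth factor that awakens satellite cells, was the 1 highest of 12 tested of 13 listed, at 89.2, 68.6 and 90.9 CPM in MuSC against 9.04 to 10.1 in CD45+ cells (2.91 ± 0.25, adjusted p = 9e-08). Both receptors were therefore high in every MuSC library. In the insulin-like growth factor pathway 3 of 15 tested of 17 listed were highest: the adaptor Irs1, the binding protein Igfbp5 and the imprinted noncoding H19. H19 had 95.1, 57 and 83.8 CPM in MuSC against 16.7, 12.4 and 4.66 in MSC, with no overlap (2.71 ± 0.36, adjusted p = 3.97e-05).

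The ligands Bmp4 and Tgfb2 were highest and the receptor Tgfbr2 lowest among 27 tested of 31 listed genes of the BMP, activin and TGF-beta pathway. Bmp4 had 156, 160.5 and 128 CPM in MuSC against 92.8, 71.9 and 51.9 in CD31+ cells (0.98 ± 0.25, adjusted p = 0.00493). Tgfbr2 had 58, 58.6 and 44.7 CPM against 132, 109.5 and 90.8 in CD45+ cells (−1.22 ± 0.19, adjusted p = 7.12e-05). Neither pair of groups overlapped. The transcription factor Tcf7 was the only highest gene of 20 tested of 29 listed in the Wnt pathway, at 5.64, 7.37 and 8.41 CPM in MuSC. No member of the EGF family list, with 7 tested of 14 listed, was highest or lowest by edgeR's test against each population, also at an unadjusted p under 0.05 or with DESeq2 or limma voom, and 5 were higher than the mean. The receptor Egfr had 90.7, 125 and 93.5 CPM in MuSC and 232, 334 and 298 in MSC, where it was higher (−1.56 ± 0.28, adjusted p = 0.0012).

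**Figure D2:**
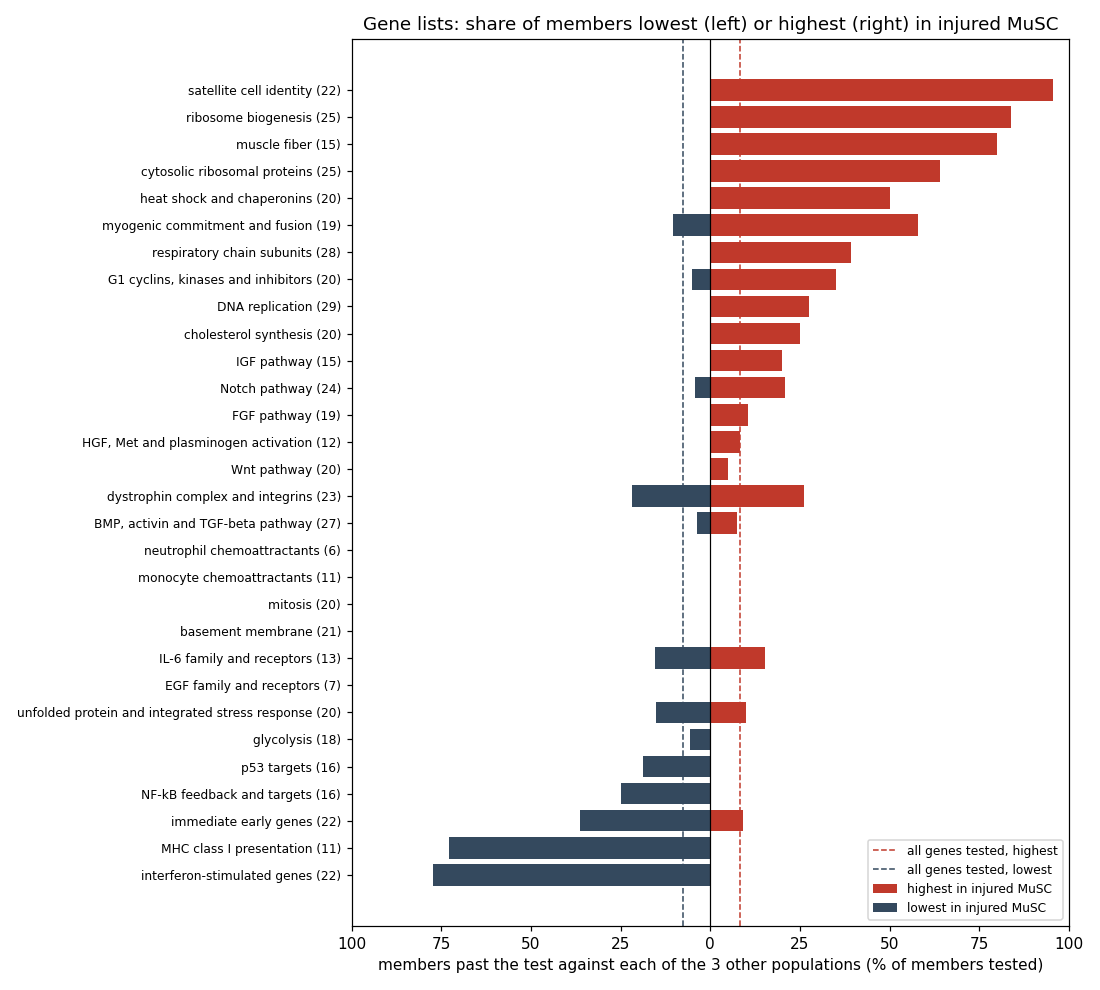
Bars give, for each gene list, the percentage of tested members that were highest (right) or lowest (left) in injured MuSC against each of the 3 other populations, with the number tested after the name; dashed lines give the same over all genes tested, 8.24% and 7.57%. The longest bars to the right belong to satellite cell identity (21 of 22), ribosome biogenesis (21 of 25) and muscle fiber (12 of 15), and to the left to interferon-stimulated genes (17 of 22) and MHC class I presentation (8 of 11).

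Genes that build ribosomes were higher in injured MuSC than in every other injured population. Of 25 ribosome biogenesis genes, all tested, 25 were higher than the mean of the others and 21 were highest against each, with a median log2 difference of 1.08 from the mean and 0.57 from MSC. Leaving out any 1 library gave 17 to 21. Npm1, a nucleolar chaperone, had 2223, 2250 and 2182 CPM in MuSC, 1665, 1486 and 1542 in MSC, 476, 493 and 377 in CD31+ cells and 344, 382 and 434 in CD45+ cells (0.43 ± 0.10 from MSC, adjusted p = 0.00456). Wdr12, needed to process the large subunit's RNA, had 183, 179.6 and 186 CPM in MuSC against 113, 113 and 111 in MSC (0.63 ± 0.11, adjusted p = 0.000281). All MuSC libraries lay above all others for both genes. The list summed to 10100, 9870 and 9040 CPM in the 3 injured MuSC libraries, 6010 to 6690 in MSC, and 2730 to 2880 in uninjured MuSC.

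Cytosolic ribosomal protein genes showed a smaller difference of the same sign. Of 25 tested, 24 were higher than the mean, 16 were highest against each population, and the median log2 difference was 0.68 from the mean and 0.30 from MSC. Rpl7 had 1346, 1447 and 1459 CPM in MuSC against 1118, 1034 and 1068 in MSC (0.33 ± 0.09, adjusted p = 0.0128), and the groups did not overlap. Because the difference from MSC was small, the count fell to 9 without MSC library 2 and to 10 without MuSC library 2 or 3. Heat shock proteins and chaperonins were highest for 10 of 20 tested. Hspe1, the mitochondrial co-chaperonin, had 327, 377 and 330.5 CPM in MuSC against 231, 222 and 231 in MSC (0.52 ± 0.13, adjusted p = 0.00573), again with every MuSC library above.

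DNA replication genes placed MuSC and MSC together, far above the other populations. All 29 tested were higher in MuSC than the mean, with a median log2 difference of 2.82 from CD31+ cells, 3.57 from CD45+ cells and 0.50 from MSC. Mcm3, a subunit of the replicative helicase, had 769, 675 and 616 CPM in MuSC, 563, 376 and 444 in MSC, 129, 107 and 119 in CD31+ cells and 48.6, 37.9 and 51.7 in CD45+ cells. Its MuSC libraries lay above every other, 0.50 ± 0.15 from MSC (adjusted p = 0.0143). In uninjured MuSC its mean was 46.8 CPM. Only 8 of the 29 were highest against each population, namely Mcm3, Rfc3, Pola1, Mcm10, Pcna, Cdc45, Gins1 and Cdt1. That count rested on single libraries: it was 0 without MSC library 3, 1 without MSC library 2, 2 without MuSC library 1, 5 without MuSC library 2, 4 without MuSC library 3 and 12 without MSC library 1. The list summed to 7990, 6200 and 6560 CPM in MuSC and to 5940, 3390 and 4480 in MSC.

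Genes of mitosis varied widely within MuSC and within MSC. Of 20 tested, 19 were higher in MuSC than the mean and 0 were highest against each population in edgeR's test, since no member passed against MSC. At an unadjusted p under 0.05 there were 7, and DESeq2 and limma voom each gave 2. Cdk1, the mitotic kinase, had 326, 144 and 238 CPM in MuSC and 142, 33.2 and 82 in MSC, so MuSC library 2 lay barely above MSC library 1 and the difference did not pass the test (1.39 ± 0.53, adjusted p = 0.0734). It had 4.75, 3.48 and 4.26 CPM in CD31+ cells. The list summed to 2050, 537 and 1250 CPM in the MuSC libraries and to 888, 151 and 452 in MSC. In both populations library 1 was highest and library 2 lowest. When the fit allowed for a shift shared by libraries of the same number, 10 of the 20 were highest in MuSC, so the count of 0 depends on leaving out that shift. Without MSC library 1 or without MuSC library 2, 6 of the 20 were highest in MuSC, and 1 was without CD31+ library 3.

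Genes that drive entry into the cycle differed more evenly. Of 20 tested of 21 listed, 7 were highest in MuSC (Ccnd1, Ccnd3, Cdk2, Cdk4, E2f2, E2f3 and Cdkn2c) and 1 was lowest. Without MuSC library 1 the first count was 4. Ccnd1, cyclin D1, had 348, 344 and 336 CPM in MuSC, 104, 98.6 and 88.6 in MSC and 120.4, 117 and 84.3 in CD31+ cells (1.62 ± 0.12 from CD31+ cells, adjusted p = 2.41e-08). The lowest was Ccnd2, cyclin D2, with 4.3, 23.7 and 13.1 CPM in MuSC, 48.9, 80.7 and 96 in CD45+ cells and 292, 276 and 300.3 in MSC (−2.65 ± 0.50 from CD45+ cells, adjusted p = 0.00103). The 2 cyclins thus lay at opposite ends of the 4 populations, and neither overlapped. Cdkn1a, the inhibitor p21, had 147, 118 and 91.2 CPM in MuSC, close to MSC at 80.7, 104 and 79.8 and below CD31+ cells at 548, 800.3 and 638.

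**Figure D3:**
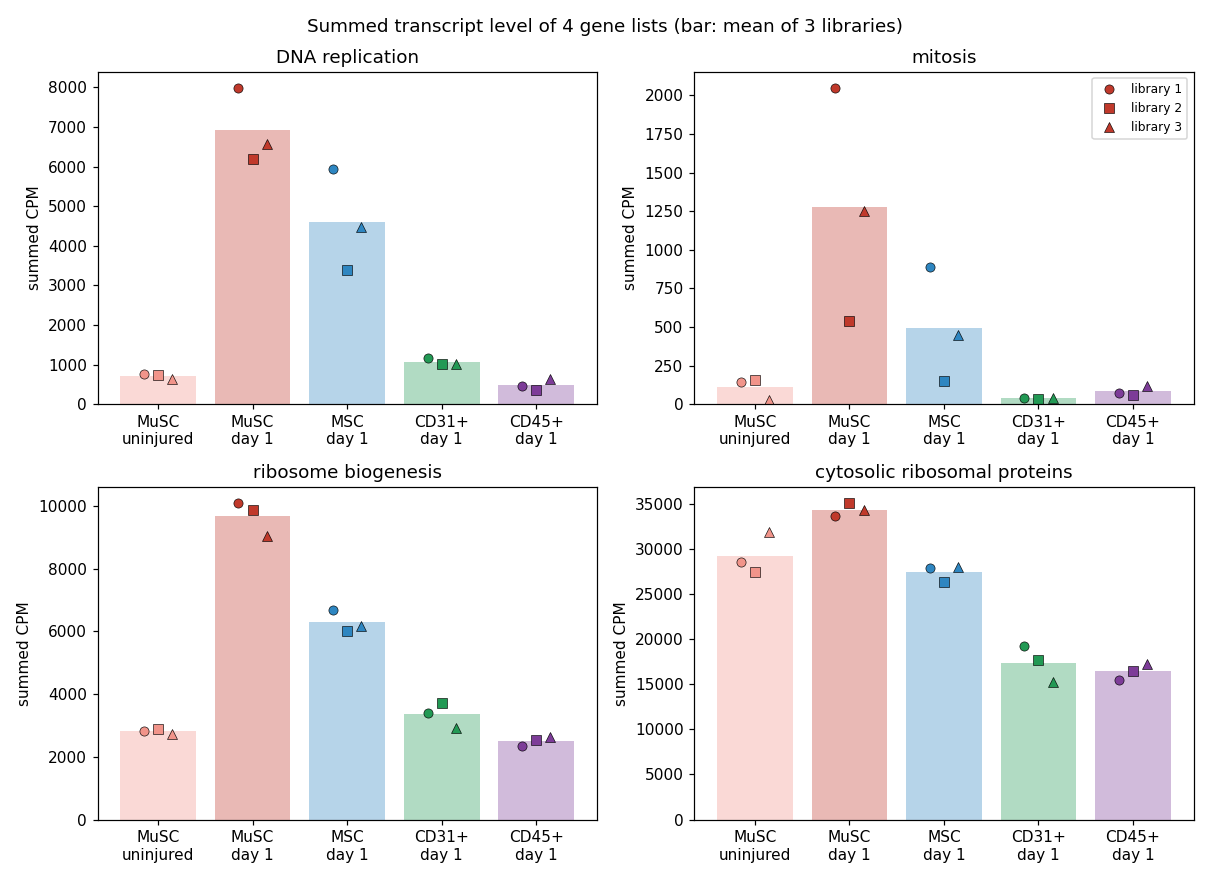
Summed CPM of 4 gene lists in each library of uninjured MuSC and of the 4 injured populations, with markers for the library number and a bar at the mean of 3 libraries. Ribosome biogenesis (9040 to 10100) lies above MSC (6010 to 6690) in every injured MuSC library, whereas the sum for mitosis (537 to 2050) overlaps with MSC (151 to 888).

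Metabolic lists differed less. Respiratory chain subunits had a median log2 difference of 0.38 from the mean, and 11 of 28 were highest. That count was 6 without MSC library 2 or MuSC library 3 and 7 without MSC library 1. Ndufv1, of complex I, had 350.2, 330.1 and 356 CPM in MuSC against 262, 237 and 251 in MSC (0.39 ± 0.08, adjusted p = 0.00194). Of 18 glycolysis genes, 0 were highest in edgeR's test, at an unadjusted p under 0.05, or with DESeq2 or limma voom, and 1, Pfkp, was lowest, while 8 were higher and 6 lower than the mean. Ldha stood at 2772, 2772 and 2598 CPM in MuSC and 2673, 2333 and 2564 in MSC (0.03 ± 0.08, adjusted p = 0.836). In cholesterol synthesis 5 of 20 were highest, among them Lss, Srebf2, Fdft1 and Idi1. Srebf2, the transcription factor that switches on genes of this pathway, had 104, 101 and 123 CPM in MuSC against 56.7, 80.4 and 57.1 in CD45+ cells (0.58 ± 0.17, adjusted p = 0.00786), with no overlap.

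The unfolded protein and integrated stress response list had few members at either end. Of 20 tested, 2 were highest and 3 lowest, against 8.24% and 7.57% of all genes tested. The 2 highest, Phgdh and Mthfd2, make serine and one-carbon units, and Phgdh had 348, 327 and 319 CPM in MuSC against 164, 152 and 159.7 in MSC (0.99 ± 0.26, adjusted p = 0.0106). The 3 lowest were Xbp1, Dnajb9 and Ddit3, a transcription factor of the unfolded protein response, an endoplasmic reticulum chaperone and a stress-induced factor. Xbp1 had 194, 205 and 251 CPM in MuSC against 384, 432 and 452 in MSC (−1.04 ± 0.11, adjusted p = 4.44e-06). Of 16 p53 targets tested of 17 listed, 3 were lowest (Bax, Fas and Ccng1), and 6 were higher than the mean but 0 highest in edgeR's test, at an unadjusted p under 0.05, or with DESeq2 or limma voom.

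Genes of the interferon response were lowest in MuSC. Type I interferons act through a transcription factor complex that contains Irf9 and binds a sequence known as the interferon-stimulated response element in the promoters of antiviral genes. Of 22 interferon-stimulated genes, all tested, 21 were lower than the mean of the other populations and 17 were lowest against each, with a median log2 difference of −2.53. Leaving out any 1 library gave 15 to 18. Bst2, a protein that tethers virus particles, had 48.5, 45.2 and 51.9 CPM in MuSC, 118, 121 and 92.7 in MSC, 149.7, 167 and 171 in CD45+ cells and 407, 345 and 322 in CD31+ cells (−1.26 ± 0.12 from MSC, adjusted p = 1.56e-06). Oas1a, which senses double-stranded RNA, had 0.148, 0 and 0.388 CPM in MuSC against 6.56, 7.11 and 3.23 in MSC (−4.81 ± 0.51, adjusted p = 3.82e-06). Irf9 itself had 24.2, 35.4 and 29.4 against 47.3, 65.3 and 47.2 (−0.92 ± 0.17, adjusted p = 0.000506). No MuSC library overlapped with another population for these 3 genes. The 5 members not lowest were Cmpk2, Mx1, Rsad2, Ifi44 and Ifit2, and Ifit2 lay −0.11 ± 0.24 from the mean (adjusted p = 0.745).

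MHC class I genes, several of which interferon also induces, followed. All 11 were lower in MuSC than the mean, and 8 were lowest: the class I chains H2-D1 and H2-K1, their partner B2m, the proteasome subunits Psmb8 and Psmb10, and the loading proteins Tap1, Tapbp and Erap1. H2-D1 had 302, 318 and 320.5 CPM in MuSC, 798, 843 and 693 in MSC and 2912, 2135 and 2129 in CD31+ cells (−1.39 ± 0.12 from MSC, adjusted p = 4.54e-07). B2m had 169, 193 and 223 CPM in MuSC and 636, 589 and 499.6 in MSC (−1.63 ± 0.16, adjusted p = 2.54e-06). Neither gene overlapped between groups. H2-K1, H2-D1 and other class I genes resemble each other, and how reads shared between such copies were counted is not given in the sources used here. The low interferon and class I levels were present before injury too: 14 of the 17 and 6 of the 8 were also lowest in uninjured MuSC, where the interferon list summed to 280 to 295 CPM against 189 to 218 in injured MuSC. The sum was 401 to 573 in injured MSC and 1460 to 1590 in CD31+ cells.

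**Figure D4:**
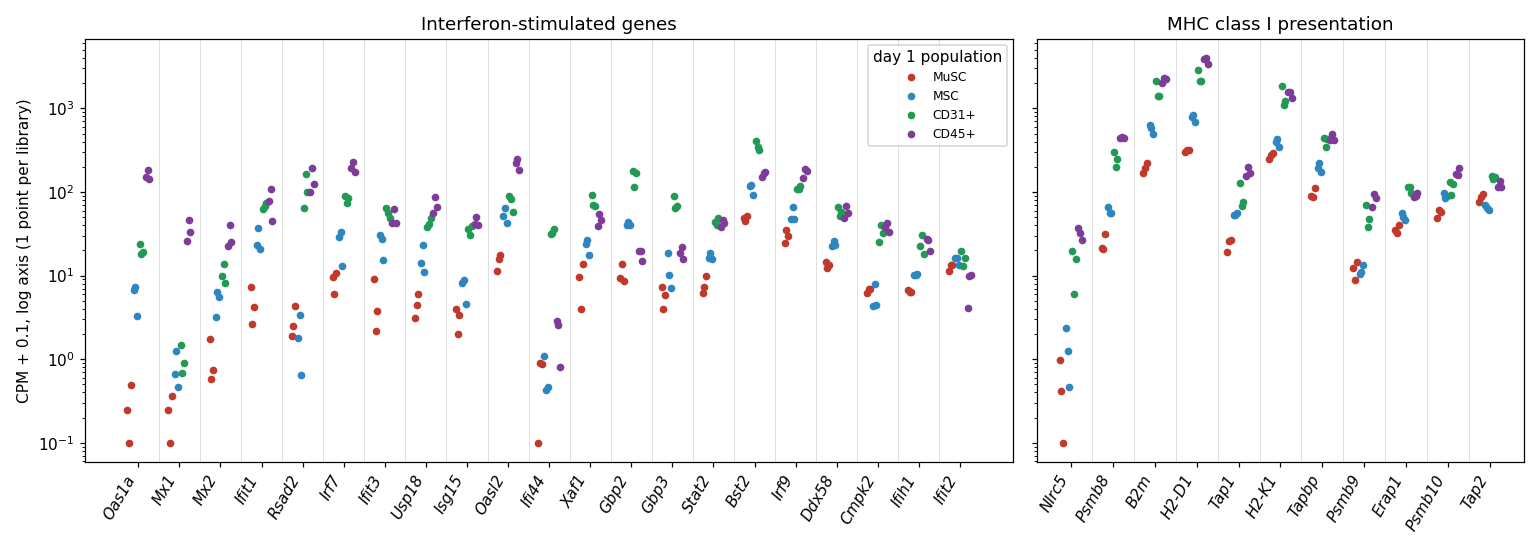
CPM + 0.1 on a log axis for 21 of the 22 interferon-stimulated genes and for 11 MHC class I genes, with 1 point per library of the 4 injured populations. MuSC was lowest against each population for 16 and 8 of the genes shown, for example 302 to 320.5 CPM for H2-D1 against 693 to 843 in MSC.

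The 3 promoters below are those that hold the response element among the genes named by the rule for the interferon and class I lists. Each is the 250 bases before the RefSeq transcription start (GRCm38.p6), read 5′ to 3′ on the gene's strand, with capitals marking GAAANNGAAA or its reverse complement TTTCNNTTTC and overlapping matches merged. Bst2 is at chr8:71537473-71537722 on the minus strand, Oas1a at chr5:120907526-120907775 on the minus strand and B2m at chr2:122147437-122147686 on the plus strand.
Bst2: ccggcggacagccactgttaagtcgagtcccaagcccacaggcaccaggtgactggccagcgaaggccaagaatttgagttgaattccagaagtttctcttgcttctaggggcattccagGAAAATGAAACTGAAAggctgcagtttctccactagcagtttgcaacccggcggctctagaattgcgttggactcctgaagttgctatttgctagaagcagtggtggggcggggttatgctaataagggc
Oas1a: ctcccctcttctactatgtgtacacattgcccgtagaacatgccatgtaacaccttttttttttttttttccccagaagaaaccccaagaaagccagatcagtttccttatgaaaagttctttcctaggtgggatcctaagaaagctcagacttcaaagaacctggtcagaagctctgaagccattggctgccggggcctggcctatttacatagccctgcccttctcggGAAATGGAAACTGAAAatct
B2m: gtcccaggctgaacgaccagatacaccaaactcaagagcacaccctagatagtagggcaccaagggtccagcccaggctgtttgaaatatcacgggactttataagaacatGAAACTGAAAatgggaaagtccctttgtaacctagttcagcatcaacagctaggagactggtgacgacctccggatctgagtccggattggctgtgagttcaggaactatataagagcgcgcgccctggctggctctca
The first base of a match lay 130 and 124 bases before the start in Bst2, 20 and 14 in Oas1a and 139 in B2m. The promoters of Oasl2, Irf9, H2-D1, Psmb8 and Tapbp, named by the same rule, held no match in their 250 bases. Of the 25 interferon and class I genes lowest in MuSC, 22 had a promoter in the table and 9 of these held the motif. That count is by gene over the 250 bases before a start, so it is not on the scale of the following shares of the motif. Counting each window from 250 bases before to 50 after the start, the motif was present in 64 of 1107 promoters of all genes lowest in MuSC (5.78%). It was present in 27 of 1105 of those highest (2.44%), in 3.26% of the promoters of genes tested and in 3.44% of all 32851 promoters. The motif was added to the search after the levels had been seen, and a match shows letters in a window, not a bound site.

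The E-box CAGCTG, which Myod1 and Myog bind, was no more frequent in the promoters of genes highest in MuSC (167 of 1105, 15.1%) than in those of genes tested (15.7%) or of all promoters (16.3%). The search also covered a MEF2 motif, present in 1.81% of promoters of genes highest in MuSC and 1.17% of those lowest. The MEF2 share was 1.2% for genes tested and 1.86% for all promoters. Of the 12 genes with the largest differences, 9 had a promoter in the table. Counted by gene over the 250 bases before the start, unlike these shares, only Chrna1 held the E-box, at 92 and 44 bases before its start. Its 250 bases (chr2:73580339-73580588, minus strand), with the matches in capitals, are shown because this gene had one of the largest differences.
Chrna1: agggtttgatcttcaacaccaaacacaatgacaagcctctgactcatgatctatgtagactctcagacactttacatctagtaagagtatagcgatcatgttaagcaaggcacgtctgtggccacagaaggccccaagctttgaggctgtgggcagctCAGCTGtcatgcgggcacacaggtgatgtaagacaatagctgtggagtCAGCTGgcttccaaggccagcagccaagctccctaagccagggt

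The genes with the most negative differences were of mixed kind. With at least 20 CPM in each other population and no overlap, the 8 farthest below the mean were Gda, Sp100, Ifi27l2a, Ly6a, Papss2, Nhsl2, Xdh and Prr13. Ly6a encodes the antigen the gate excluded. Sp100, a nuclear body protein that interferon induces, had 1.33, 1.44 and 0.518 CPM in MuSC against 31.5, 34.7 and 32.5 in MSC, 31.8-fold lower (−4.99 ± 0.24, adjusted p = 2.02e-09), and Ifi27l2a, also induced by interferon, had 2.97, 0 and 0.129 against 44.3, 18.9 and 27.9 in CD31+ cells. Xdh, the xanthine dehydrogenase that makes uric acid, had 0.594, 1.6 and 3.37 CPM in MuSC against 50.6, 91.5 and 56.9 in MSC, 36.1-fold lower. Gda, the guanine deaminase that feeds the same pathway, had 3 counts over MuSC against 35.4, 47 and 19.2 CPM in MSC, a ratio of 237 with a counting interval of 80.7 to 1150. Papss2, which makes the sulfate donor of proteoglycans, had 0.445, 1.6 and 0.259 CPM in MuSC against 48.4, 29.3 and 38.9 in CD45+ cells, 58.6-fold lower.

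Most immediate early genes, which cells switch on within minutes of a stimulus, were lower in MuSC than the mean of the other populations, and the distance was greatest from CD45+ cells. The list summed to 3340, 4220 and 3750 CPM in MuSC, 3090 to 3540 in MSC, 3730 to 4740 in CD31+ cells and 24200 to 35800 in CD45+ cells, so MuSC overlapped with MSC and with CD31+ cells. Against CD45+ cells 20 of the 22 tested were lower, and against MSC 10 were lower and 4 higher. Of the 22, 8 were lowest (Klf6, Zfp36, Klf4, Ier3, Ier5, Fosl2, Nr4a2 and Nr4a3) and 2 were highest, and 15 were lower than the mean. Without MuSC library 1 or 3 the lowest were 5. Klf4 had 9.94, 11.7 and 12.2 CPM in MuSC against 32.4, 60.2 and 42.9 in MSC (−2.07 ± 0.21, adjusted p = 2.12e-06). The 2 highest were Myc and Fosl1. Myc, a driver of cell growth, had 468, 542 and 450.1 CPM in MuSC against 364, 299 and 358 in MSC (0.44 ± 0.12, adjusted p = 0.0105). Fosl1, an AP-1 factor, had 207, 217 and 204 CPM against 81.5, 126 and 80.1 in CD31+ cells (1.07 ± 0.32, adjusted p = 0.0137) and a mean of 1.09 in uninjured MuSC. Without CD31+ library 1 or 3, MSC library 1, 2 or 3, or MuSC library 2, 1 member was highest in place of 2.

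Most NF-kB targets were lower in MuSC than the mean of the others. The NF-kB list summed to 848, 1000 and 899 CPM in MuSC and 964 to 1120 in MSC, so these groups overlapped. Its sum was 1330 to 1620 in CD31+ cells and 3990 to 6030 in CD45+ cells. Members lay on both sides of MSC, such as Birc3 at −1.55 and Traf1 at 2.35 (log2). Of 16 NF-kB targets and feedback genes tested, 11 were lower than the mean, 4 were lowest (Birc3, Nfkbiz, Icam1 and Tnip1) and 0 highest in edgeR's test, at an unadjusted p under 0.05, or with DESeq2 or limma voom. Icam1, the adhesion molecule to which leukocytes bind, had 7.27, 24.5 and 7.38 CPM in MuSC against 142, 140.5 and 97.9 in MSC (−3.37 ± 0.44, adjusted p = 0.000244). Among 13 tested of 15 listed genes of the IL-6 family, 6 were lower and 2 higher than the mean, against 27.1% and 30.5% of all genes. The ligands Clcf1 and Ctf1 were highest, and the transducer Stat3 and the receptor Il6ra were lowest. The shares over all genes were 8.24% and 7.57%, and counts this small do not set the family apart. Clcf1 had 118, 128 and 132 CPM in MuSC against 42.6, 30.4 and 33.9 in MSC (1.75 ± 0.28, adjusted p = 0.000231), whereas Stat3 had 64, 100.1 and 92.5 against 184, 197 and 178 (−1.20 ± 0.15, adjusted p = 1.34e-05). The groups did not overlap for either gene.

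No chemoattractant gene was highest or lowest in MuSC by edgeR's test, over 6 tested of 7 listed for neutrophils and 11 for monocytes. At an unadjusted p under 0.05, and with DESeq2, 1 of each list was lowest, and with limma voom 0. Against the mean, 1 and 2 were higher and 3 and 2 lower. The levels in MuSC differed strongly by library. Ccl2, which recruits monocytes, had 22.7, 352 and 190.3 CPM in the 3 MuSC libraries against 2385, 1211 and 2064 in MSC (−3.39 ± 0.95, adjusted p = 0.0228). Cxcl5, a neutrophil attractant, had 3.56, 332 and 60.3 against 1830, 1517 and 1196 (−3.59 ± 1.23, adjusted p = 0.0503). Library 1 was lowest and library 2 highest in both, and all 3 lay below MSC.

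Some stromal markers had the same order among the MuSC libraries and others did not. Library 1 was lowest and library 2 highest for 9 of the 15 stromal markers, and for 5 of the 6 chemoattractant genes with a mean of at least 100 CPM in MSC. Over the full chemoattractant lists, without that cut, the order held for 3 of 7 neutrophil and 3 of 11 monocyte genes. The share of all genes tested with this order is not given here. Dcn stood at 0.16%, 3.40% and 2.46% of its mean MSC level in MuSC libraries 1, 2 and 3, Pdgfra at 0.0455%, 7.47% and 3.89%, and Smoc2 at 0.0868%, 6.53% and 3.62%. Cxcl5 stood at 0.235%, 21.9% and 3.98%, and Ccl2 at 1.20%, 18.6% and 10.1%. The order was different for the collagens Col1a1, Col1a2 and Col3a1 and for Gsn, Pi16 and Serpinf1, and Serpinf1 stood at 14.2%, 9.89% and 11.9%. Among the 15 stromal markers this percentage was largest for Dpt, at 21.9%, 43.4% and 33.6%. All 15 were lower in MuSC than in MSC, and their sum was 2210, 2910 and 3060 CPM in MuSC against 45000 to 63800 in MSC. In uninjured MuSC the sum was higher than in injured MuSC, at 4840 to 5520 CPM. Single markers went both ways: the mean of Dpt was 618 CPM in uninjured and 143 in injured MuSC, and that of Dcn 32.2 and 208. The part of stromal transcripts in the chemokine levels was not tested. With libraries 2 and 3 both left out and library 1 taken to vary like the other groups, 589 genes were highest and 728 lowest, 18 of the 22 identity genes and 14 of the 25 ribosome biogenesis genes were highest, and 13 of the 22 interferon-stimulated genes were lowest. The counts of ribosomal protein, muscle fiber and heat shock genes highest in MuSC were then 0, 4 and 5.

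**Figure D5:**
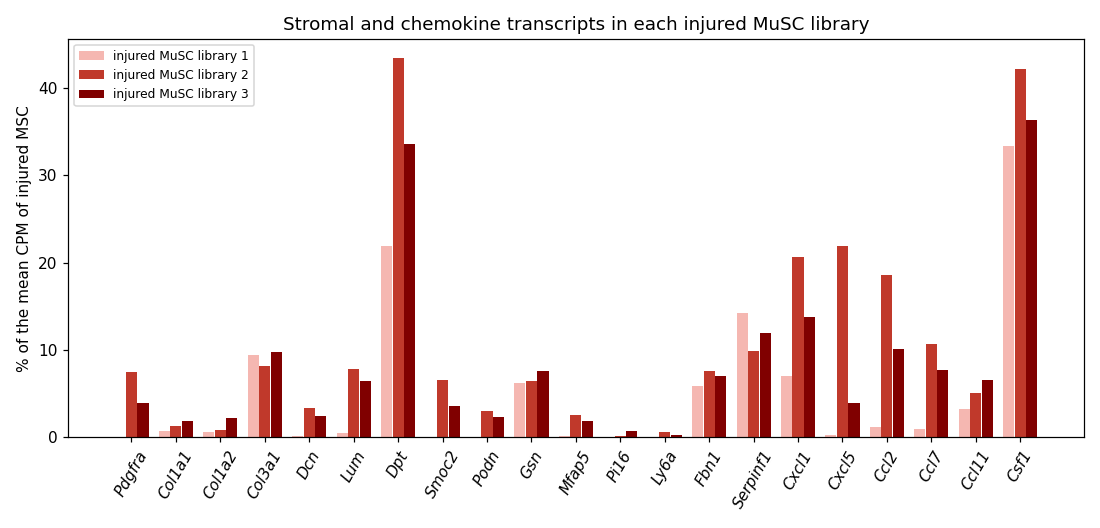
Bars give the CPM of the 15 stromal markers and of the 6 chemoattractant genes (from Cxcl1 rightward) with a mean of at least 100 CPM in injured MSC, in each injured MuSC library, as a percentage of that mean. Library 1 is lowest and library 2 highest for 14 of the 21 genes, with Cxcl5 at 0.235%, 21.9% and 3.98%.

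Endothelial and leukocyte markers were low. The 14 endothelial markers summed to 70.3 to 99.3 CPM in MuSC against 15900 to 17800 in CD31+ cells, and Kdr had no count in MuSC. The 14 leukocyte markers summed to 2.56 to 5.49 CPM against 39700 to 43900 in CD45+ cells. The pericyte and smooth muscle markers summed to 2550, 2070 and 3130 CPM in MuSC, above CD31+ cells (563 to 762), MSC (226 to 272) and CD45+ cells (32.8 to 58.4). Nearly all of the MuSC sum came from Des, at 1738, 1710 and 2296 CPM, and Acta2, and the smooth muscle myosin Myh11 had 4.6, 0.32 and 0.777. Of 11 tested of 12 listed, Des and Acta2 were highest in MuSC, and Des, the muscle intermediate filament, is also on the identity list. Acta2, smooth muscle actin, had 775, 322 and 806 CPM in MuSC and 151, 334 and 199.8 in CD31+ cells, where the groups overlapped (1.41 ± 0.47, adjusted p = 0.0287). Of the glial list, 6 were tested of 12 listed, and Ngfr and Mal were highest. Ngfr, a neurotrophin receptor, had 25.2, 19.5 and 18.8 CPM in MuSC against 1.51, 3.18 and 0.699 in CD45+ cells, with no overlap. The glial defining gene Sox10 did not pass the filter on low counts. Tendon markers summed to 267, 358 and 416 CPM in MuSC, between CD31+ cells (61.5 to 107) and MSC (1370 to 2060) and overlapping with CD45+ cells (272 to 285). Thbs4, a matrix thrombospondin, had 89.8, 126 and 165 CPM in MuSC. Scx, a tendon transcription factor, was the 1 highest of 7 tendon genes tested of 10 listed, at 4.3, 3.52 and 10.4 CPM. Erythroid genes, 4 tested of 8 listed, were neither higher nor lower than the mean.

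More than 1 in 2 of the genes that set injured MuSC apart also did so before injury. Over the 13773 genes tested in both conditions, 1150 were highest in injured MuSC and 1072 in uninjured MuSC (1146 of the 14789 genes tested in uninjured libraries, 7.75%), and 618 were on both lists, 53.7% of the first and 57.6% of the second. The fits shared no library. The corresponding lists of lowest genes held 1087 and 1090, with 612 on both. Of DNA replication genes 8 were highest after injury and 2 before, with 0 in common, though the 8 rested on single libraries. Of muscle fiber genes 12 and 4 were highest, of cholesterol synthesis 5 and 1, and of the genes of cycle entry 7 and 5, with all 5 in common. For ribosome biogenesis 21 and 15 were highest, with 14 in common. Cytosolic ribosomal proteins went the other way, with 16 highest after injury and 20 before, 14 of them in common. These are counts, and a gene on 1 list is not shown to have changed.

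The change itself was tested as an interaction over all 24 libraries, that is, whether the distance of MuSC from the mean of the other populations differed between injured and uninjured muscle. It rose for 1516 genes (9.32% of 16263 tested) and fell for 678 (4.17%). The split depended on the scaling: with the libraries scaled to MSC library 1 of injured muscle, a setting chosen after the data had been seen, 994 rose and 1289 fell, and the median change over all genes moved from 0.113 to −0.0944. Single genes with large changes kept their direction under both scalings. Nptx1, a secreted neuronal pentraxin, had no count in uninjured MuSC and 67.1, 97.4 and 46.9 CPM in injured MuSC, against 0.279, 2.32 and 1.61 in injured MSC (interaction adjusted p = 0.000188). Hmga2, a chromatin protein of growing progenitors, had no count in uninjured MuSC, 43.3, 34.9 and 28.5 CPM in injured MuSC and 13.8, 12.7 and 9.33 in injured MSC (interaction adjusted p = 0.00618). The difference of injured MuSC from injured MSC was 1.49 ± 0.36 for Hmga2 (adjusted p = 0.00421). Uninjured MSC library 3 was the only one of its group with counts of these genes. Without it the fitted change was 9.36 in place of 10.51 for Nptx1 and 7.26 in place of 7.97 for Hmga2, and adjusted p was 1 for each. These fitted changes depend on the prior count, since uninjured MuSC had no count.

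Among the genes whose distance fell, Dtx4 and S1pr3 were lower in injured than in uninjured MuSC in every library. Dtx4, a Notch regulator, had 356, 377 and 351 CPM in uninjured and 108, 129.6 and 101 in injured MuSC (interaction adjusted p = 7.02e-06). S1pr3, a sphingosine phosphate receptor, had 506, 285 and 376 and 95.3, 120.5 and 82.7 (interaction adjusted p = 0.0041), and without CD45+ library 3 of injured muscle this p was 0.385. Gal, the neuropeptide galanin, stood at 239.8, 241 and 239 CPM in uninjured and 257, 156 and 259.9 in injured MuSC, while CD31+ cells went from a mean of 0.0934 to 9.82, 10.6 and 31.9 (interaction adjusted p = 0.0081), so its distance fell while MuSC levels overlapped. Myod1 and Pax7 could not be tested this way because other groups had no count. Myod1 had 340.4, 424 and 279 CPM in uninjured MuSC against 2220, 2330 and 2169 after injury, and Pax7 had 638, 499 and 579 against 201, 225 and 252, with no overlap in either gene and opposite directions.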

How the data were processed

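Per the labels' protocols, cDNA was primed with oligo(dT), libraries were made with Nextera XT and paired 25-base reads were sequenced. The authors deposited raw read counts per gene symbol. Per the submitters' processing notes, reads were aligned with STAR 2.5.4 to mm10 and counted with featureCounts. The settings for strand and multimapping reads are not stated in the labels or notes. All 24 columns were matched to samples by name, and no column was left unmatched.

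Counts were analysed in R 4.3.3 with edgeR 4.0.16 (filterByExpr, TMM scaling, robust quasi-likelihood fit, Benjamini-Hochberg adjustment over all genes tested, adjusted p under 0.05), limma 3.58.1 and DESeq2 1.42.0. The 12 injured libraries were fitted with 1 mean per population, which leaves 8 residual degrees of freedom. The contrasts were MuSC minus the mean of the 3 other log means, and MuSC minus each population. The uninjured libraries had a fit of their own, and the interaction used all 24. CPM were scaled by TMM. Standard errors are the log2 difference divided by the root of its F statistic. Ratios with 1 to 3 counts in a group carry counting intervals (95%), and intervals and floors cover counting error only. On simulated counts for the injured design, 50 of 50 genes raised 4-fold and 43 of 50 raised 2-fold were called against the mean, and 50 and 12 against each population, over 14544 genes.

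Named genes were the marker and gate genes and the 12 most positive and 8 most negative differences (at least 20 CPM, no overlap). The 5 largest changes each way with injury were added, with up to 4 members of each list that passed against the mean. Within a list, members highest or lowest against each population came first, and then those of smallest adjusted p. The examples of a list therefore lean toward members that met the stricter rule. Other list members named, such as exceptions and full sets of highest or lowest members, were picked after their values were seen, as were Ccl2, Cxcl5, Dcn, Smoc2, Ccnd2, Cdkn1a and Fosl1. The comparison and the lists were chosen with earlier results of these data known, so no list is independent support. Unnamed gene models were left out of the ranked choices. Promoters came from RefSeq (GRCm38.p6), of which 10490 of the 14544 genes tested had one, and positions from GENCODE. Promoters of 1 chromosome were not used here, and a few list members are counted but not reported singly here. Alternatives were other scalings, tools and filters, a replicate block, all 24 libraries in a single fit and leaving out libraries.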

Additional observations from a re-analysis of the deposited data

Results flagged for a closer look

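The difference of MuSC from the other populations itself differed between injured and uninjured muscle, by the interaction test, for 1516 genes that rose and 678 that fell. Among the genes named, adjusted p was 0.001315 for Ly6a, 0.02848 for Pdgfra, 0.04499 for Sp100 and 0.03089 for Prr13. All 4 were lower in MuSC than in the other populations before injury. Ly6a had 0, 0 and 0.587 CPM in uninjured and 2.23, 12.8 and 6.6 in injured MuSC, and Pdgfra had 0.193, 0.338 and 0 and 0.297, 48.7 and 25.4. Both were highest in MuSC library 2, as were 9 of the 15 stromal markers, and the part of stromal transcripts in the change was not tested. Sp100 had 0.579, 1.35 and 0.587 and 1.33, 1.44 and 0.518 CPM, and Prr13 2.12, 0.338 and 1.56 and 1.63, 4.8 and 2.59, so MuSC levels overlapped for both. The mean of Sp100 went from 361 to 161 CPM in CD31+ cells, 230.5 to 180.7 in CD45+ cells and 84.4 to 32.9 in MSC. That of Prr13 went from 193 to 139 in CD31+ cells, 136.8 to 137.4 in CD45+ cells and 97.2 to 73.55 in MSC.

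The 5 largest rises among genes with a mean of at least 20 CPM in injured MuSC were those of Nptx1 (0.0001881), Traf1 (4.943e-06), Hmga2 (0.006179), Cep55 (0.003599) and Rnd1 (0.004438), with adjusted p in brackets. Nptx1, Traf1, Hmga2 and Rnd1 had no count in any uninjured MuSC library. Traf1, an adaptor of tumor necrosis factor receptors, reached 31.2, 20.5 and 22.9 CPM in injured MuSC, above MSC (6.14, 4.3 and 3.23) and below CD45+ cells (119, 145 and 77.1). Cep55, a protein of cell abscission, reached 42.9, 8.65 and 24.9 CPM, and its p was 0.0643 without uninjured MSC library 3. Rnd1 reached 20.5, 22.6 and 24.6 CPM, while CD31+ cells had 217, 281 and 189.

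The 5 largest falls among genes with a mean of at least 20 CPM in uninjured MuSC were those of S1pr3 (0.004095), Gal (0.008098), Mgarp (0.007594), Dtx4 (7.023e-06) and Tmem51 (2.536e-05). Mgarp, a mitochondrial protein, had 23.3, 15.2 and 24.8 CPM in uninjured and 5.34, 5.61 and 4.14 in injured MuSC. Its p was 0.0609 without CD31+ library 1 and 1 without CD45+ library 2 of injured muscle. Tmem51 had 56.9, 52.7 and 34.6 and 17.4, 14.4 and 13.8 CPM, so every injured MuSC library lay below every uninjured one for both genes.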

How the results depend on the processing

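Among the named genes, no difference from the mean that passed its test changed direction under any alternative run. Some did not pass in every run: the call was the same in 11 of 19 runs for Cxcl3, 15 for Ccl8 and 16 for Ppbp, Csf1 and Pdgfrb. Pdgfra, whose difference from the mean did not pass (1.14), stood at −5.14 without MuSC.inj replicates 2 and 3. Leaving out 1 library at a time gave 4029 to 4593 genes higher and 3500 to 3913 lower than the mean, 942 to 1246 highest and 947 to 1094 lowest in MuSC, and 529 to 636 highest both before and after injury. Without MuSC.inj replicates 2 and 3, which leaves a single MuSC library assumed to vary like the other groups, 589 genes were highest, 728 lowest, 347 highest in both conditions and 591 rose with injury. Over 2-fold against each population, 499 were highest and 515 lowest. DESeq2, limma voom, RLE size factors and no filter on low counts gave 1271, 1496, 1240 and 1154 highest and 1175, 1061, 1081 and 1017 lowest. With all 24 libraries in the fit, 5017 were higher and 3479 lower than the mean, 59.1% of calls against 52.9%.

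The split of the interaction counts turned under several alternatives. With 1 library left out, rises ranged from 898 to 1496 and falls from 450 to 1332. Falls exceeded rises without uninjured CD31+ library 1 or 2, CD45+ library 3 or any 1 MSC library, and without injured CD45+ library 1, 2 or 3 or MSC library 1. Falls were 450 without injured MuSC library 1. TMM scaled to MSC library 1 of injured muscle, added after seeing the data, gave 994 rises and 1289 falls, 43.5% rises against 69.1%. The share of rises was 65.3% with RLE size factors and 62.7% with no filter.

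Library numbers are shared across groups. Between samples of the same number, the correlation of deviations from group means was −0.0182 to 0.210, over 0.1 in 4 of 18 pairs. All 4 involved MuSC: 0.181 and 0.169 with MSC (libraries 1 and 2) and 0.126 and 0.210 with CD45+ cells (libraries 1 and 3). The sources used here do not say whether a number marks the same animal. The main fit took no pairing, so any part shared by same-numbered libraries was left in its residual spread. With the replicate block, 4356 genes were higher and 3877 lower than the mean, 1224 were highest (1131 shared), 1102 lowest (1064 shared), 1445 rose and 678 fell. The block also moved mitosis genes highest in MuSC from 0 to 10. Depth limits genes near the floor of 0.388 to 0.756 CPM, where a level cannot be told from 0.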
